A study of Mus musculus with 32 samples.

Results

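The comparison described here is that of a mutant mouse hematopoietic progenitor line given IFNg and Pam3CSK4 together with the same line given vehicle. The groups were taken from the sample titles. They hold 4 treated and 4 vehicle samples, 8 of the 32 samples in the series. The line, hi-77-/-, came from fetal liver progenitors that lack the Gata2 enhancer after which the line is named, and was immortalised with ER-HOXB8, an estrogen-dependent fusion protein that holds progenitors in an undifferentiated, dividing state while estradiol is present. Cells received IFNg at 1 ng/ml and Pam3CSK4 at 100 ng/ml for 4 h. Vehicle cells of the same genotype were grown in the same medium, with serum, stem cell factor, estradiol and G418. Further samples used for comparison were hi-77-/- with IFNg alone (4) or Pam3CSK4 alone (4), and the enhancer-intact line hi-77+/+ with vehicle (4) or both agonists (4). Both lines carry ER-HOXB8, and each genotype is represented by a single line, so genotype and line cannot be told apart. The labels do not say whether the 4 samples of a group came from separate cultures. The p-values below therefore measure only the spread between these samples, which may be technical.

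IFNg is a cytokine of T and NK cells. It binds the receptor chains Ifngr1 and Ifngr2, and the kinases Jak1 and Jak2 then start a signal that acts on GAS elements of target genes and induces Irf1, a transcription factor that acts on ISRE elements. Pam3CSK4 is a synthetic triacylated lipopeptide that mimics bacterial lipoproteins and is sensed by the receptor pair Tlr2 and Tlr1, with signalling through Myd88 to NF-kB and MAP kinases. GATA2 is a transcription factor of hematopoietic stem and progenitor cells, and the deleted enhancer drives Gata2 expression in myeloid progenitors. In macrophages, these pathways are known to meet at shared targets such as chemokine genes.

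Total expected counts were 49.3 to 67.1 M (mega) in the treated libraries and 50.3 to 64.3 M in the vehicle libraries. The progenitor markers fixed for the line were present: Kit averaged 295 CPM (counts scaled per megacount of library size) in vehicle, Cd34 1790, Flt3 373 and Mpo 1863. The lowest of the 12 markers were Elane, at 3.16 CPM, and Runx1, at 15.2 CPM. Gata2 stood at 6.62, 8.03, 7.37 and 8.06 CPM in the mutant vehicle libraries and 43.4 ± 8.27 CPM (SD, n = 4) in the hi-77+/+ vehicle libraries. With both agonists it measured 6.68, 6.04, 8.42 and 6.79 CPM in the mutant line, overlapping vehicle (log2 change -0.11 ± 0.1 SE, adjusted p = 0.428 by edgeR's quasi-likelihood test with Benjamini-Hochberg adjustment). The treated libraries differed among themselves in their share of structural RNA (transcripts of the mitochondrial genome, small non-coding RNAs and other abundant non-coding RNAs), at 18.9%, 18.8%, 27.8% and 26.3% for replicates 1 to 4, beside 23.5% to 27.9% in vehicle. Replicates 1 and 2 resembled each other, as did replicates 3 and 4: the chi-square statistic per gene between 2 libraries was 11.0 and 19.6 within these pairs and 102 to 152 across them. The group difference in the structural share was within that spread (two-sided exact permutation test over 70 assignments, p = 0.371, smallest possible 0.0286). Comparison groups also held unlike libraries. Replicate 4 of IFNg alone, with a structural share of 15.5%, had a chi-square statistic per gene of 85.0 to 147 to its other replicates. Between hi-77+/+ vehicle libraries the statistic was 34.2 to 139.

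Both agonists together changed the level of a large part of the transcriptome within 4 h. By median change, interferon-induced GTPases, chemokines, complement and acute-phase genes, antiviral genes and cytokines rose most among the gene lists, and among genes with at least 5 CPM in either group the falls named by size were led by Ccng2, Cxcr4, Tmprss2 and Tmem119. Of 14869 genes tested, 3519 were higher (23.7%) and 2994 lower (20.1%) at an adjusted p under 0.05. Rises were larger than falls: 522 genes rose at least 2-fold and 296 fell at least 2-fold, and the median log2 change over all genes was -0.01. The balance of higher and lower genes depended on the processing, with 3287 and 3282 under RLE scaling, 3310 and 3308 by DESeq2 and 3037 and 3282 with a stricter filter on low counts. Without treated replicates 1 and 2 the counts were 2907 higher and 2822 lower, and without replicates 3 and 4 they were 3267 and 2711.

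**Figure D1:**
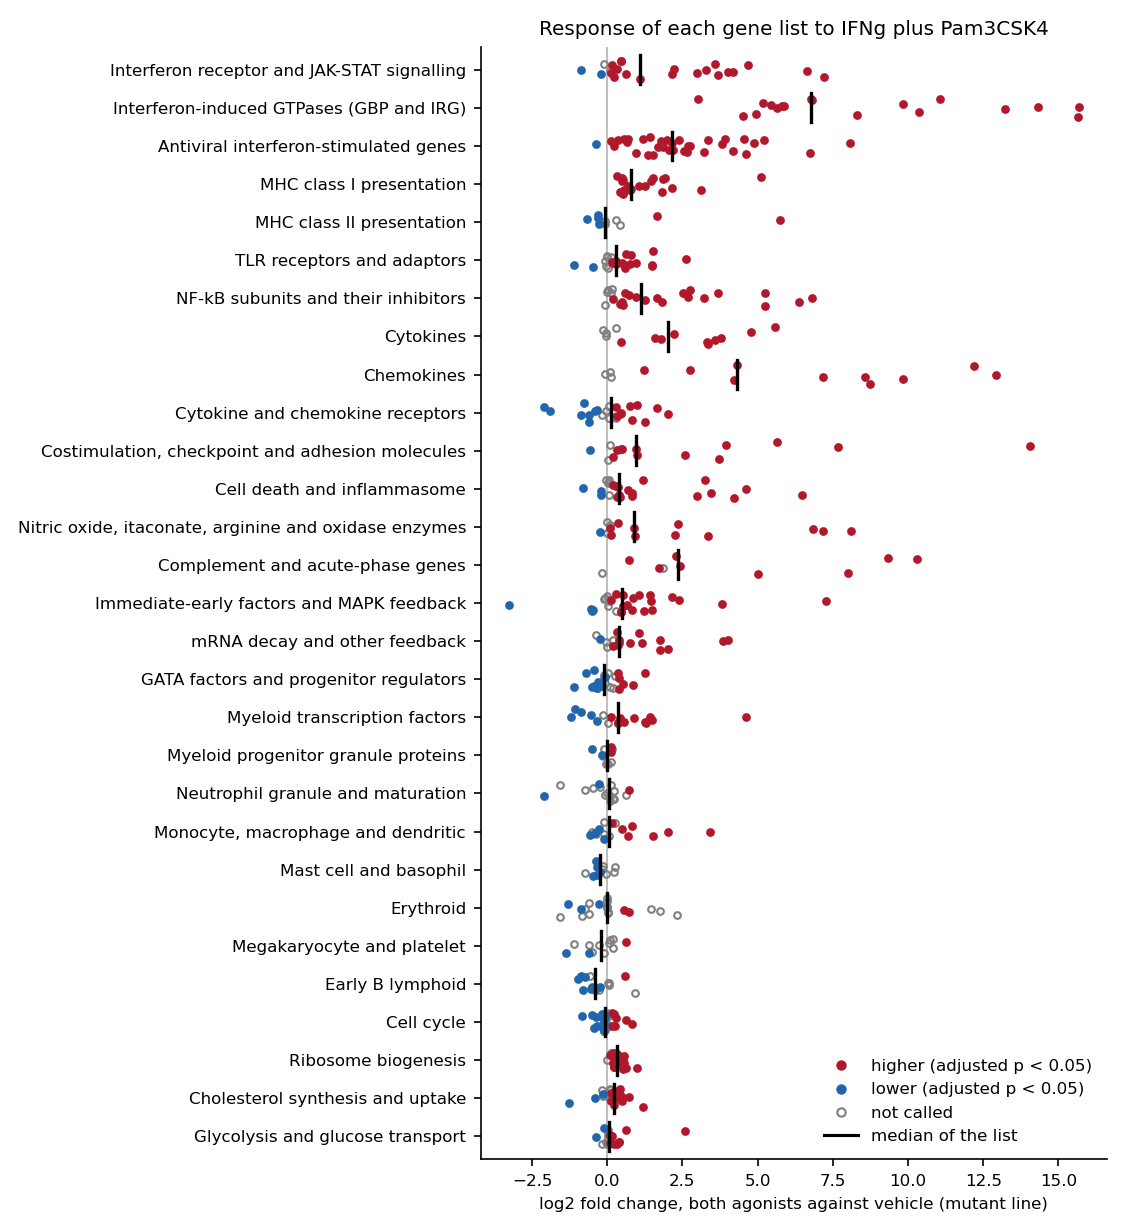
Log2 fold change of each tested member of 29 gene lists, both agonists against vehicle in the mutant line (x axis); each point is a gene, red or blue where it was called higher or lower at an adjusted p under 0.05 and open where it was not, and the black bar is the list's median. All 18 tested interferon-induced GTPases lie to the right of 0, with a median of 6.78, whereas early B lymphoid genes lie mostly to the left, with a median of -0.42; genes at 0 counts in vehicle are drawn at their fitted value, which is no bound.

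Promoters of 4 strongly rising genes are printed because they hold matches to the elements described above; they were chosen after the matches were seen. The sequences are the 250 bases before the RefSeq start of each gene (build GRCm38.p6), read 5′ to 3′ on the gene's strand, with motif matches in capitals. The motifs searched on both strands were GAS (TTCNNNGAA, in 7.02% of 32851 RefSeq promoters), the ISRE core (GAAA, any 2 bases, GAAA, in 2.98%) and the kB motif (in 3.9%). Irf1 (ENSMUSG00000018899.16, chr11:53769764-53770013, plus strand) has a GAS match 90 to 82 bases and a kB match 13 to 4 bases before the start. Tgtp2 (ENSMUSG00000078921.3, chr11:49064213-49064462, minus strand) has a GAS match at 81 to 73 bases and an ISRE core at 70 to 61 bases. Tnfaip3 (ENSMUSG00000019850.11, chr10:19015411-19015660, minus strand) has kB matches at 125 to 116 and 12 to 3 bases. Cxcl10 (ENSMUSG00000034855.13, chr5:92348890-92349139, minus strand) has an ISRE core at 213 to 204 bases and kB matches at 159 to 150 and 103 to 94 bases. For Irf1 and Tnfaip3, 2 RefSeq starts are listed. The start shown was chosen for matching the most kinds of motif, with ties going to the lower coordinate.
Irf1: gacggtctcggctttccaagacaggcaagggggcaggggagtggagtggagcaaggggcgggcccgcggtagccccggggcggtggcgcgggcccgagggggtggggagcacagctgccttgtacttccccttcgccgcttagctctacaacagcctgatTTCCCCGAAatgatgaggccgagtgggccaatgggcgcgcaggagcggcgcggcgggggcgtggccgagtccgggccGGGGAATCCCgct
Cxcl10: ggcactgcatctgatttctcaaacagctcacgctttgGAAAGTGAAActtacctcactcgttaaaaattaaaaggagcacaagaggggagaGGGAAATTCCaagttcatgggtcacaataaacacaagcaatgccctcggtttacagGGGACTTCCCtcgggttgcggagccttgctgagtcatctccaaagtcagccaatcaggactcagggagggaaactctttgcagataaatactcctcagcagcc
Tgtp2: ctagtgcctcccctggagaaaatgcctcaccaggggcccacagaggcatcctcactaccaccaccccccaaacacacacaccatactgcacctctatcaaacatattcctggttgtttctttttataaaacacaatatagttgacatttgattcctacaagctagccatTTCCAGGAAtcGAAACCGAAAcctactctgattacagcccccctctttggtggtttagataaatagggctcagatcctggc
Tnfaip3: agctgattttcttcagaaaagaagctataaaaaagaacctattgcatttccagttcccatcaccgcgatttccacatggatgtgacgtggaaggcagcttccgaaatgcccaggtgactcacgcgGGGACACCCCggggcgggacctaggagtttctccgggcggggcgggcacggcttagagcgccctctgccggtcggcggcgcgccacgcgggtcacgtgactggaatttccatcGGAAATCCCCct
Among interferon-induced GTPases with a RefSeq promoter, 9 of 10 had an ISRE core, 6 a GAS match and 1 a kB match. Among 26 antiviral genes, 10 had an ISRE core, 6 a GAS match and 2 a kB match. Among 19 NF-kB genes, 9 had a kB match, 4 a GAS match and 0 an ISRE core. Among 9 chemokines, 3 had a kB match, 1 a GAS match and 1 an ISRE core. A gene counted here if any of its listed starts had a match, whereas the percentages above are shares of single promoters. The list counts and those percentages are therefore not directly comparable. These matches describe the letters of the windows and do not show binding.

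At the level of the receptors, the IFNg chains moved in opposite directions, whereas both members of the Pam3CSK4 pair rose. Ifngr1, the ligand-binding chain, fell from 106, 104, 107 and 102 CPM in vehicle to 58.5, 58.3, 57.4 and 53.9 CPM (log2 change -0.87 ± 0.04 SE, adjusted p = 5.4e-19). Ifngr2, the signalling chain, rose from 30.3, 30.3, 30.3 and 30.4 CPM to 39.1, 41.4, 45.9 and 41.8 CPM (0.47 ± 0.05, adjusted p = 1.6e-10). The treated and vehicle libraries did not overlap for either chain, which held for 5473 of all 6513 called genes. Tlr2 rose from 4.98, 4.34, 5.62 and 5.14 CPM to 15.5, 13.1, 15 and 14.4 CPM (1.53 ± 0.1, adjusted p = 5.2e-15). Its partner Tlr1 went from 1.09, 0.833, 1.28 and 0.851 CPM to 3.06, 3.09, 2.83 and 2.33 CPM (1.48 ± 0.19, adjusted p = 4.9e-08), and Tlr6, the partner for diacylated lipopeptides, rose by a smaller amount (0.6 ± 0.1, adjusted p = 8.1e-06). All treated libraries exceeded all vehicle libraries for these 3 genes. Cd14, a coreceptor that hands lipids to TLRs, was between 2.26 and 3.11 CPM with both agonists and between 2.1 and 3.34 CPM with vehicle, without a detectable difference (-0.01 ± 0.11, adjusted p = 0.967).

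Of 23 tested genes of the interferon receptor and JAK-STAT list, 19 rose and 2 fell (Ifngr1 and Pias1, a SUMO ligase), with a median log2 change of 1.08. Irf1 rose from 22.1, 24.8, 21.7 and 21.5 CPM to 579, 577, 563 and 564 CPM (4.67 ± 0.05, adjusted p = 9.0e-40). Irf8, a transcription factor of monocyte and dendritic cell development, rose from between 16.1 and 18.8 CPM to between 201 and 221 CPM (3.58 ± 0.05). In both genes the lowest treated library lay several times above the highest vehicle library. Socs1, the feedback inhibitor of JAK kinases, was near the detection limit in vehicle (0.0974, 0, 0.15 and 0.0482 CPM) and reached 11.4, 11.8, 13.1 and 11.3 CPM (7.22 ± 0.25, adjusted p = 6.7e-22). Batf2, an interferon-induced factor of the AP-1 family, rose from 0.0974, 0.214, 0.216 and 0.225 CPM to between 17.8 and 20.3 CPM (6.64 ± 0.18).

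The GBP and IRG families of interferon-induced GTPases, which attack the vacuoles of intracellular microbes, had the largest median change of the lists. All 18 tested members rose, with a median log2 change of 6.78 (6.32 with the members that had no vehicle count at their lower bound). Gbp2 rose from 0.357, 0.32, 0.383 and 0.241 CPM to 746, 701, 617 and 735 CPM (11.06 ± 0.15, adjusted p = 6.7e-29). Tgtp2 went from 0.0649, 0.171, 0.0998 and 0.0321 CPM to 879, 822, 784 and 910 CPM (13.22 ± 0.13, adjusted p = 1.1e-31). Both genes thus moved from near the detection limit to among the more abundant transcripts. Gbp5 had no count in any vehicle library and 123, 114, 102 and 117 CPM with both agonists, at least 8801-fold higher against a floor of 3 counts over the vehicle group. Iigp1 had 2 counts in all vehicle libraries together and 491 to 640 CPM with both agonists, a ratio of 64116 (95% counting interval 17749 to 529429). The summed level of the list went from 63.7 to 68.3 CPM in vehicle to 5344 to 6143 CPM. Tgtp1 and Tgtp2, and several GBP genes, are near-identical copies between which the authors' counting can divide reads, so the value of a single copy is uncertain.

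Antiviral interferon-stimulated genes also rose as a group: 34 of 35 tested were higher and 1 lower, with a median of 2.16. Zbp1, a sensor of nucleic acids, rose from at most 0.0854 CPM to between 10.5 and 14.5 CPM (8.08 ± 0.27), and Isg15, a ubiquitin-like modifier, rose by 5.22 ± 0.2 on the log2 scale. The exception was Mx2, an antiviral GTPase, which fell from 19.4 to 21.4 CPM in vehicle to 14.3 to 17.2 CPM (-0.36 ± 0.08, adjusted p = 3.8e-04). All 21 tested genes of MHC class I presentation rose, with a smaller median of 0.79. Tap1, a subunit of the peptide transporter, went from 68.5, 69.5, 70.9 and 72 CPM to 268, 255, 263 and 273 CPM (1.92 ± 0.04, adjusted p = 3.8e-29). MHC class II genes did not rise together: 2 of 10 tested rose and 4 fell, with a median of -0.08. Of all genes, 23.7% rose and 20.1% fell. Cd74, the invariant chain, rose from at most 0.114 CPM to between 3.17 and 4.14 CPM (5.74 ± 0.3). H2-DMb2, a chain of the peptide-loading factor, fell by 0.67 on the log2 scale (adjusted p = 1.9e-04).

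**Figure D2:**
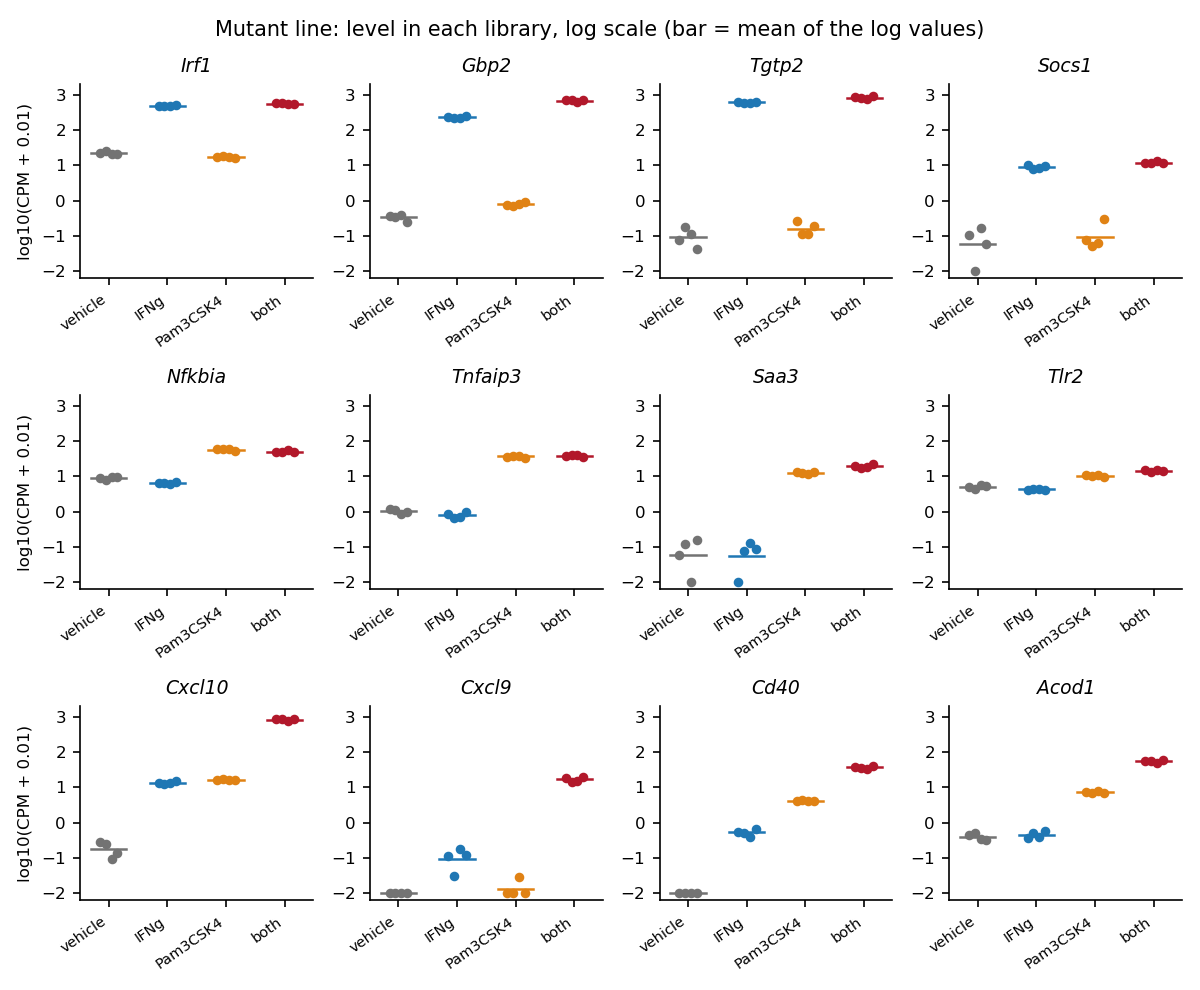
Level of 12 genes in each of the 4 libraries of the 4 mutant groups, as log10(CPM + 0.01) on the y axis; points are libraries and bars the mean of the log values. Irf1, Gbp2, Tgtp2 and Socs1 are high wherever IFNg was given, Nfkbia, Tnfaip3, Saa3 and Tlr2 wherever Pam3CSK4 was given, and Cxcl10, Cxcl9, Cd40 and Acod1 are highest with both.

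Genes of the TLR pathway and of NF-kB, the targets of the second agonist, rose as well. Of 23 tested TLR receptors and adaptors, 15 rose and 2 fell, with a median of 0.28. Irak2, a kinase downstream of Myd88, rose from between 1.49 and 2.22 CPM to between 11.1 and 11.9 CPM (2.62 ± 0.1, adjusted p = 1.9e-22). Of 24 NF-kB subunits and inhibitors, 19 rose and none of those tested fell, with a median of 1.11. Nfkbia, the inhibitor IkBa, rose from 9.07, 7.84, 9.47 and 9.28 CPM to 49.5, 49.4, 54.8 and 50 CPM (2.51 ± 0.06, adjusted p = 2.0e-27). Tnfaip3, the ubiquitin-editing enzyme A20, rose from 1.17, 1.11, 0.849 and 0.947 CPM to 37.3, 41.1, 39.8 and 35.3 CPM (5.24 ± 0.09, adjusted p = 4.8e-33). In both inhibitors the lowest treated library was far above the highest vehicle library. Tnip3, which binds A20, rose by 6.81 ± 0.11 and Bcl3, an atypical nuclear IkB protein, by 5.24 ± 0.29 on the log2 scale.

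Secreted signals were among the most changed transcripts. Of 13 tested chemokines, 10 rose, with a median of 4.31, and of 14 tested cytokines, 10 rose, with a median of 2.01. None of those tested fell. Cxcl10, a chemoattractant for T cells, rose from 0.276, 0.235, 0.0832 and 0.128 CPM to 876, 865, 765 and 883 CPM (12.2 ± 0.12, adjusted p = 3.0e-36). Cxcl9, a ligand of the same receptor, had no count in vehicle and 18.9, 14.6, 15.1 and 19.7 CPM with both agonists, at least 1303-fold higher. Cxcl11, the remaining ligand of that receptor, was also at 0 in vehicle and was at least 151-fold higher. Among cytokines, Tnf, an inflammatory cytokine named after its values were seen, rose from 8.73, 9.51, 9.1 and 8.49 CPM to 89.5, 93.3, 97.1 and 88.5 CPM (3.36 ± 0.05, adjusted p = 1.7e-34). Il1b, an inflammasome substrate, rose from at most 0.0998 CPM to between 2.01 and 2.35 CPM (4.79 ± 0.25), and Lif, a cytokine of the IL-6 family, from at most 0.112 CPM to between 4.25 and 4.81 CPM (5.58 ± 0.25). Tnf had by far the highest level of these 3 cytokines in both groups.

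Effector and surface molecules followed. Of 15 tested costimulation, checkpoint and adhesion genes, 12 rose and 1 fell, with a median of 0.97. Cd40, the costimulatory receptor of antigen-presenting cells, had no count in vehicle and 38.6, 34.8, 34.1 and 40.2 CPM with both agonists, at least 2830-fold higher. Icosl, the ligand of ICOS, rose from at most 0.349 CPM to between 11.1 and 12.1 CPM (5.63 ± 0.16). Of 15 enzymes of nitric oxide, itaconate, arginine and oxidant metabolism, 11 rose and 1 fell, with a median of 0.89. Acod1, which makes itaconate, rose from 0.422, 0.491, 0.333 and 0.305 CPM to 58, 56, 47.9 and 59.4 CPM (7.17 ± 0.13, adjusted p = 8.2e-32). Nox1, an NADPH oxidase, rose from at most 0.166 CPM to between 6.36 and 8.98 CPM (6.84 ± 0.24). Hdc, which makes histamine, was the member that fell (-0.23 ± 0.03, adjusted p = 3.8e-07). Of 25 cell death and inflammasome genes, 16 rose and 3 fell, with a median of 0.38; the death receptor Fas rose by 6.47 ± 0.29 and Casp4, the sensor of intracellular lipopolysaccharide, by 4.6 ± 0.15. Of 10 complement and acute-phase genes, 8 rose, with a median of 2.35. Complement factor B (Cfb) was at 0 in vehicle and at least 214-fold higher, and serum amyloid A3 (Saa3) reached 17.6 to 22.8 CPM from at most 0.145 CPM (8.02 ± 0.24).

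Transcription factors of the immediate-early class and feedback regulators changed in both directions. Of 28 tested immediate-early and MAP kinase feedback genes, 18 rose and 4 fell, with a median of 0.5. Atf3, a stress-induced factor, rose from at most 0.227 CPM to between 19.3 and 19.9 CPM (7.26 ± 0.23). Dusp1, a MAP kinase phosphatase, fell (-0.55 ± 0.13, adjusted p = 4.7e-04). Of 18 genes of mRNA decay and other feedback, 13 rose and 1 fell, with a median of 0.39. Among them the survival kinase Pim1 rose by 3.84 ± 0.05 and Zc3h12a, a ribonuclease that degrades cytokine transcripts, by 2.03 ± 0.09 on the log2 scale.

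The falls named by size were smaller than the rises. Ccng2, an atypical cyclin linked to quiescence, went from 23.4, 21.7, 22.5 and 23.1 CPM to 5.58, 5.81, 5.89 and 5.1 CPM (-2.02 ± 0.06, adjusted p = 4.0e-25). Cxcr4, the receptor that retains progenitors in their niche, went from 68.2, 71, 67.8 and 66.8 CPM to 19.3, 18, 19.4 and 17.4 CPM (-1.89 ± 0.04, adjusted p = 3.5e-29). Tmem119, a transmembrane protein, went from between 34.2 and 35.7 CPM to between 9.87 and 12.9 CPM (-1.68 ± 0.07). The 12 falls named by size, among genes with at least 5 CPM in either group and no overlap between groups, lay between -2.02 and -1.36. They included Tmprss2, a membrane protease, Ppargc1a, a coactivator of mitochondrial genes, and Thbs1, a matrix glycoprotein of platelets. In each of these 12 genes the mean with either single agonist lay between that of vehicle and that of the combination.

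**Figure D3:**
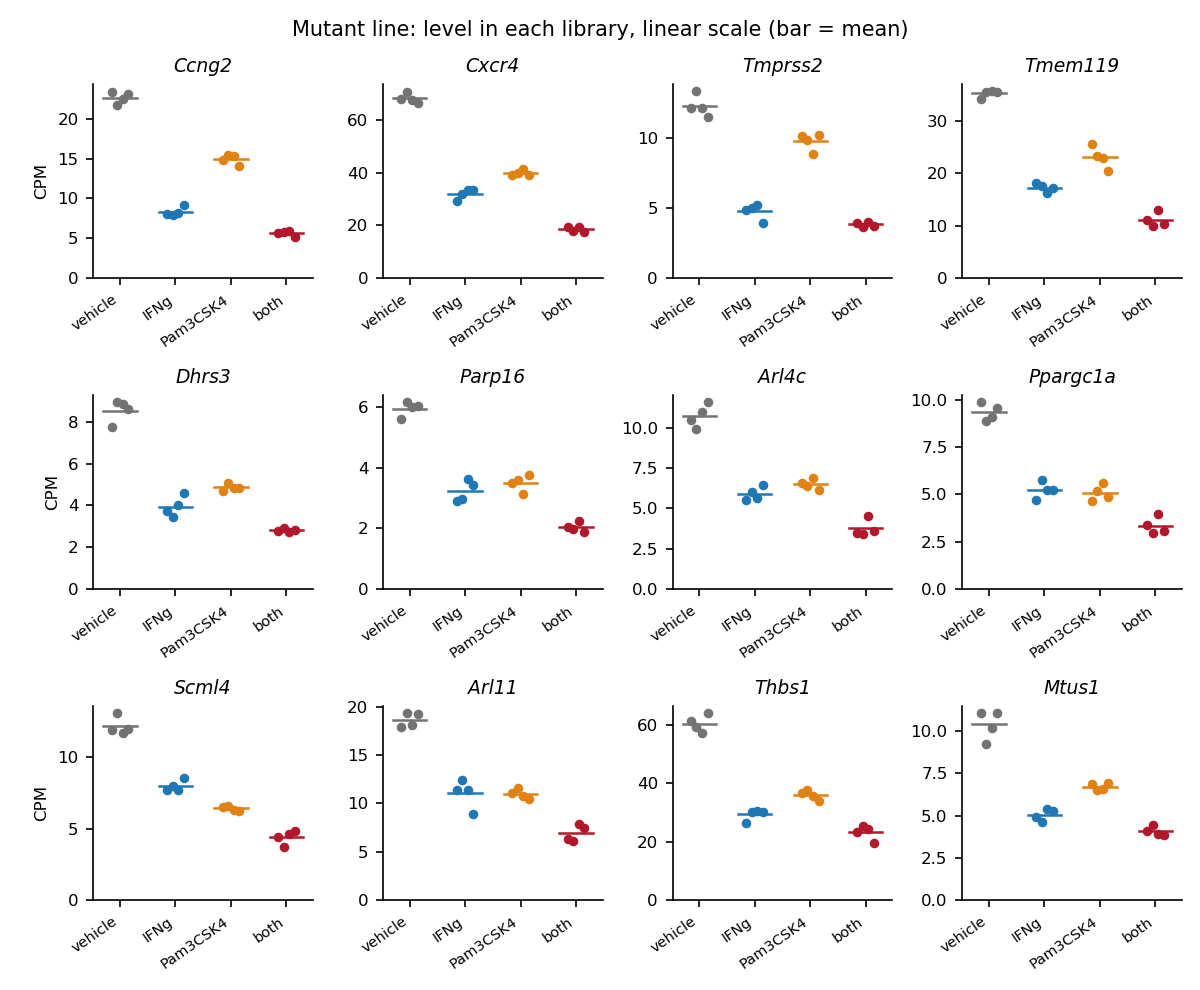
Level in CPM (y axis, from 0) of the 12 genes named by size of fall, in each of the 4 libraries of the 4 mutant groups; bars are means. The mean of every gene is lowest with both agonists, and Cxcr4 goes from a mean of 68.4 CPM in vehicle libraries to 32.1 CPM after IFNg, 40 CPM after Pam3CSK4 and 18.5 CPM after the combination.

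Among cytokine and chemokine receptors the directions were mixed: of 24 tested, 9 rose and 8 fell, with a median of 0.14. Cxcr2, the neutrophil chemokine receptor, went from 3.39, 2.69, 2.96 and 3.02 CPM to 0.746, 0.698, 0.798 and 0.571 CPM (-2.09 ± 0.15, adjusted p = 5.4e-14). Il7r, the IL-7 receptor chain of lymphoid progenitors, fell from between 10.6 and 11.8 CPM to between 5.69 and 6.38 CPM (-0.87 ± 0.13). Csf1r, the M-CSF receptor, rose from between 1.07 and 1.56 CPM to between 4.91 and 5.85 CPM (2.01 ± 0.16, adjusted p = 1.4e-12).

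Progenitor genes moved in both directions. Of 12 progenitor markers, 9 passed the test: Ptprc, Spi1 and Runx1 were higher, and Kit, Cd34, Flt3, Cebpa, Myb and Mpo lower. Kit, the stem cell factor receptor, was 288, 295, 286 and 309 CPM in vehicle and 230, 249, 233 and 214 CPM with both agonists (-0.35 ± 0.04, adjusted p = 1.3e-08). Of 24 GATA factors and progenitor regulators, 6 rose and 11 fell, with a median of -0.1. Of all genes tested, 23.7% rose and 20.1% fell. Bcl11a, a zinc finger transcription factor of lymphoid and erythroid progenitors, had the largest rise of the list, from between 2.18 and 2.95 CPM to between 5.72 and 6.5 CPM (1.25 ± 0.1, adjusted p = 2.7e-12). Meis1, a homeobox cofactor of HOX proteins, fell from 51.4, 49.9, 51 and 53 CPM to 24.6, 24.5, 23.3 and 23.6 CPM (-1.1 ± 0.04, adjusted p = 5.7e-23). Lmo2, an adaptor of GATA complexes, moved the other way, from 124, 121, 123 and 115 CPM to 221, 219, 215 and 229 CPM (0.87 ± 0.03, adjusted p = 8.9e-22). Like 5473 of all 6513 called genes, these 3 genes showed no overlap between groups. Of 18 myeloid transcription factors, 11 rose and 5 fell, with a median of 0.36; Cebpb, an inflammatory factor, rose by 1.28 ± 0.14 and Cebpa, the granulocyte-monocyte factor, fell by 0.54.

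Among lists of other lineages and of maturation, those with at least 10 members tested had medians between -0.42 and 0.06. Among granule proteins of myeloid progenitors, 2 of 10 tested rose and 2 fell, near the shares of all genes (23.7% higher, 20.1% lower). Of neutrophil genes 1 of 17 rose and 2 fell, and of monocyte, macrophage and dendritic genes 7 of 17 rose and 4 fell. The summed level of the last list was 753 to 809 CPM with both agonists and 835 to 924 CPM with vehicle. Its member Ccr2, at 310 CPM in the treated mean, fell by 0.4 on the log2 scale. Of early B lymphoid genes 1 of 15 rose and 8 fell, with a median of -0.42: Igll1, the surrogate light chain, fell by 0.79 and Rag2, a recombinase subunit, by 0.73, whereas Rag1, its partner, rose by 0.58. The summed level of that list was 372 to 400 CPM with both agonists and 397 to 416 CPM with vehicle. None of 11 tested mast cell and basophil genes rose and 5 fell, with a median of -0.23 and sums of 410 to 436 CPM beside 492 to 510 CPM. Kit, also a progenitor marker, made up most of that sum (295 and 232 CPM in vehicle and treated means). Erythroid genes (2 of 20 rose, 3 fell) summed to 1481 to 1622 CPM with both agonists and 971 to 1057 CPM with vehicle, a sum made mostly of Car2, a carbonic anhydrase (615 and 1014 CPM in vehicle and treated means), and Tfrc, the transferrin receptor (365 and 536 CPM). Megakaryocyte genes (1 of 12 rose, 2 fell, median -0.2) summed to 515 to 531 CPM beside 408 to 420 CPM. That sum was made mostly of Plek, at 416 CPM in the treated mean, which rose by 0.61 on the log2 scale. Lists for other sources were mostly below the filter on low counts: 3 of 20 T and NK cell genes, 8 of 18 stromal and endothelial genes and 4 of 17 hepatocyte genes were tested. No count in any of the 8 libraries was found for 6 of 20 T and NK cell genes, among them Cd3e, Trbc1, Trbc2 and Ncr1. The same held for 2 of 18 stromal and endothelial genes (Col3a1 and Emcn) and 7 of 17 hepatocyte genes, among them Ttr and Ahsg. The tested stromal and endothelial genes summed to 490 to 525 CPM with both agonists and 539 to 569 CPM with vehicle. Vim made up most of that sum (435 CPM in the treated mean). In bulk RNA, fewer cells of a type and less RNA per cell cannot be told apart, and the part of a change in cell composition in these results was not tested.

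Growth and metabolic lists changed by less than 2-fold in their medians. Of 28 ribosome biogenesis genes, 26 rose and none of those tested fell, with a median of 0.32; Noc4l, a ribosome assembly factor, rose most (0.99 ± 0.04). Of 25 cholesterol genes, 16 rose and 3 fell, with a median of 0.22. Hsd17b7, a sterol synthesis enzyme, rose from between 14.6 and 18 CPM to between 33 and 42.6 CPM (1.2 ± 0.07), and the cholesterol exporter Abcg1 fell from between 24.2 and 25.4 CPM to between 9.53 and 11.1 CPM (-1.27 ± 0.06). Of 22 glycolysis and glucose transport genes, 9 rose and 2 fell, with a median of 0.05. Of 36 cell cycle genes, 7 rose and 14 fell, with a median of -0.08, beside 23.7% of all genes higher and 20.1% lower. Cyclin D2 (Ccnd2) rose by 0.82 ± 0.04, and the inhibitor p27 (Cdkn1b) fell by 0.83 on the log2 scale.

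The next comparison asked what Pam3CSK4 added to IFNg. Against IFNg alone, 1387 genes were higher (9.33%) and 1152 lower (7.75%) with both agonists, and 204 and 47 of them by at least 2-fold. NF-kB subunits and inhibitors (19 of 24 higher), chemokines (10 of 13 higher) and acute-phase and complement genes (7 of 10 higher) were mostly higher, with medians of 0.96, 2.48 and 2.04 and no tested member lower. Saa3 measured 0.0632 ± 0.0474 CPM (SD, n = 4) with IFNg and 19.7 ± 2.2 with both (8.18 ± 0.24 SE, adjusted p = 5.6e-23 by edgeR). Tnip3 was higher by 7.4 ± 0.12 and Acod1 by 6.99 ± 0.13 on the log2 scale. Interferon targets also gained: 12 of 18 GTPases were higher than with IFNg alone, with a median of 0.43, and Gbp2 went from 234 ± 20.2 to 700 ± 58.5 CPM (1.58 ± 0.08, adjusted p = 2.4e-14). Of antiviral genes, 11 of 35 were higher and 2 lower, with a median of 0.04. Cxcr4 was lower by 0.79 on the log2 scale and Scml4, a Polycomb-related protein, by 0.87. The balance of higher and lower genes depended on the processing, with 1249 and 1257 under the stricter filter. Leaving out treated replicates 1 and 2 gave 1374 and 1388, and leaving out replicates 3 and 4 gave 1058 and 715. Without replicate 4 of IFNg alone the counts were 1251 and 863.

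The reverse comparison asked what IFNg added to Pam3CSK4. Against Pam3CSK4 alone, 2607 genes were higher (17.5%) and 1694 lower (11.4%), and 337 and 104 of them by at least 2-fold. The counts were 2286 and 1953 under RLE scaling, 2341 and 2049 by DESeq2 and 2155 and 2120 with the stricter filter. All 18 GTPases (median 6.78) and 34 of 35 antiviral genes (median 2.22) were higher. Of NF-kB genes 8 of 24 were higher and 3 lower, with a median of 0.07, and Tnfaip3, at 36.9 ± 2.06 CPM (SD, n = 4) with Pam3CSK4 and 38.4 ± 2.56 with both, did not differ detectably (0.06 ± 0.06 SE, adjusted p = 0.535 by edgeR). Tlr2 was higher with both agonists than with Pam3CSK4 alone, at 14.5 ± 1.07 beside 10.3 ± 0.638 CPM (0.5 ± 0.1, adjusted p = 1.1e-04). Cx3cr1, the fractalkine receptor of monocytes, was lower: 5.56 ± 0.206 CPM with Pam3CSK4 and 1.67 ± 0.274 with both (-1.74 ± 0.13, adjusted p = 3.2e-13), while vehicle stood at 0.979 ± 0.103. Csf1r was likewise lower with both agonists than with Pam3CSK4 alone (-0.84 ± 0.14, adjusted p = 2.0e-05), although it was above vehicle.

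Among the 522 genes that rose at least 2-fold against vehicle, 180 (34.5%) were also higher than with either single agonist. A further 199 (38.1%) exceeded Pam3CSK4 alone but not IFNg alone, 109 (20.9%) exceeded IFNg alone but not Pam3CSK4 alone, and 34 (6.51%) exceeded neither. Exceeding here means a call by edgeR at an adjusted p under 0.05, so genes without a call were not shown to be equal. These comparisons all use the same treated libraries in which the genes were selected. For the 296 falls of at least 2-fold, the combination was lower than both single agonists in 91 (30.7%) and lower than neither in 103 (34.8%). Over all 3519 called rises the shares were 19.6% beyond both single agonists and 25% beyond neither, and over all 2994 called falls 15% and 43.3%.

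Levels were also set beside the plain sum of the single-agonist levels less the vehicle level. Of 252 genes that rose at least 2-fold and averaged at least 5 CPM with both agonists, the median ratio of the combined level to this sum was 1.1, 14 genes were at 2 or more, and 63 were under 1. Cxcl10 measured 13.5 ± 0.929 CPM (SD, n = 4) with IFNg, 16.6 ± 0.728 with Pam3CSK4 and 847 ± 55.1 with both, 28.3 times the sum. Cxcl9 stood at 17.1 CPM with both against a sum of 0.107, Gbp5 at 114 against 8.45, Cd40 at 36.9 against 4.72 and Acod1 at 55.3 against 7.22. These ratios are descriptions of group means, without a test.

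The test of departure from additivity was made on the log2 scale, where no departure means that the single fold changes multiply. By this test 206 genes were above (1.39%) and 70 below (0.471%) the sum of the single log2 changes, with 9 and 10 departing by at least 2-fold. Acod1 departed most upward among named genes: IFNg alone changed it by 0.18 ± 0.2, Pam3CSK4 alone by 4.22 ± 0.14, and both by 7.17 ± 0.13, a departure of 2.77 ± 0.23 (adjusted p = 8.1e-10 by edgeR). Lrrc25, a leucine-rich repeat membrane protein, departed by 1.23 ± 0.18, Tlr2 by 0.74 ± 0.14 (adjusted p = 1.8e-03), Irf1 by 0.57 ± 0.06 (adjusted p = 3.6e-08) and Ifngr2 by 0.42 ± 0.07 (adjusted p = 1.3e-04). Irf1 and Ifngr2 share a pattern of opposite single effects: Pam3CSK4 alone lowered Irf1 by 0.36 and IFNg alone lowered Ifngr2 by 0.41 on the log2 scale, whereas the combination did not fall below the stronger single agonist. The antiviral pair Cmpk2 and Rsad2, neighbouring interferon-stimulated genes, departed upward by 0.85 ± 0.11 and 0.88 ± 0.22.

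Among the named downward departures, each single agonist had raised the gene from a low baseline. Icosl rose by 3.21 ± 0.18 with IFNg, 5.16 ± 0.16 with Pam3CSK4 and 5.63 ± 0.16 with both (departure -2.73 ± 0.21, adjusted p = 1.9e-10 by edgeR). Tubb3, a neuronal beta-tubulin, measured 0.194 ± 0.0645 CPM (SD, n = 4) in vehicle, 66.6 ± 5.28 after IFNg, 1.83 ± 0.118 after Pam3CSK4 and 151 ± 12.3 after both (-2.07 ± 0.2 SE, adjusted p = 5.3e-08). Slfn2, a regulator of immune cell quiescence, departed by -1.91 ± 0.21 and Tent5c, a poly(A) polymerase, by -1.63 ± 0.2. A downward departure on the log2 scale is not a level below the plain sum. The ratio of the combined level to that sum was 2.69 for Slfn2, 2.22 for Tubb3, 1.13 for Icosl and 0.995 for Tent5c. Cxcl10, in spite of its ratio to the plain sum, did not depart detectably on the log2 scale (-0.55 ± 0.22, adjusted p = 0.274). For Serpina3f and Cd40, which the same rule named, all vehicle libraries were at 0, so the departure depends on the prior count and is not read here. The number of downward departures was 120 in a fit that took the structural share as covariate, 112 without treated replicate 2, 244 without treated replicates 1 and 2, and 38 without replicates 3 and 4; upward departures numbered 156 to 291 over all alternatives run.

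**Figure D4:**
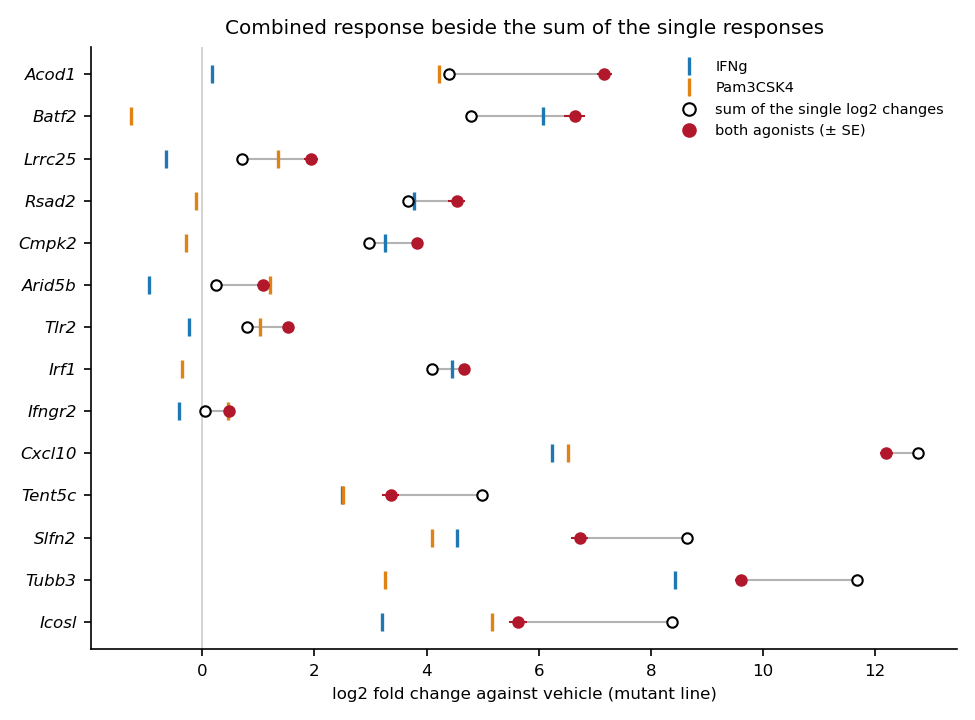
Log2 fold change against vehicle in the mutant line (x axis) for genes named by the departure rule with counts in vehicle, plus Irf1, Tlr2, Ifngr2 and Cxcl10. Ticks are the single agonists, open circles their sum and filled circles the combination ± SE; Acod1 lies at 7.17, to the right of its sum, and Icosl at 5.63, to the left of its sum.

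The response to both agonists was then compared between the lines. The mutant response exceeded that of hi-77+/+ in 1308 genes (8.8%) and was below it in 1039 (6.99%). NF-kB genes (14 of 24 above, 0 below, median difference 0.56), cytokines (7 of 14 above, 0 below), costimulation genes (10 of 15 above, 0 below) and cholesterol genes (15 of 25 above, 1 below) had larger responses in the mutant line. The GTPases (0 of 18 above, 7 below, median -0.6) and antiviral genes (5 of 35 above, 12 below, median -0.21) had the opposite split. Some GTPases, such as Gbp5, Iigp1 and Tgtp2, had few or no counts in vehicle libraries. The size of their differences, and so the family's median, can depend on the prior count. Tnfaip3 rose by 5.24 ± 0.09 in the mutant and 2.75 ± 0.08 in hi-77+/+ (difference 2.48 ± 0.12, adjusted p = 4.0e-17 by edgeR), and Nfkbia by 2.51 ± 0.06 and 1.53 ± 0.06 (0.98 ± 0.09, adjusted p = 3.3e-10). Cxcl10 rose from 0.41 ± 0.0897 to 216 ± 4.66 CPM (SD, n = 4) in hi-77+/+, a log2 change of 9.03 ± 0.11 SE beside 12.2 ± 0.12 in the mutant (difference 3.17 ± 0.27, adjusted p = 3.4e-10). Acod1 reached 8.34 ± 0.642 CPM in hi-77+/+ and 55.3 ± 5.14 in the mutant (difference in log2 response 3.53 ± 0.21, adjusted p = 4.6e-15). Steap4, a metalloreductase, stayed at 0.0664 ± 0.0602 CPM in treated hi-77+/+ cells and reached 5.8 ± 0.206 CPM in the mutant. The structural RNA share moved with this comparison, at 12.76% to 14.17% in treated and 19.38% to 28.78% in vehicle hi-77+/+ libraries. With it as a covariate 723 genes were above and 438 below, and with the structural RNA genes removed before scaling 1303 were above and 1031 below. The counts were 703 and 571 without treated mutant replicates 3 and 4, 1368 and 1880 without replicates 1 and 2, and 980 and 1598 without replicate 1 alone. The share of the calls above moved from 55.7% to 37.5% in a fit of these 4 groups alone (710 above) and to 39.4% with a stricter filter on low counts (1619 below).

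A smaller fold response did not mean a lower level. Irf1 rose less in the mutant (4.67 ± 0.05 beside 5.19 ± 0.05, difference -0.52 ± 0.06, adjusted p = 4.4e-08 by edgeR), yet its treated level was 571 ± 8.11 CPM (SD, n = 4) in the mutant and 413 ± 6.2 in hi-77+/+. Irf8 showed the same order, at 212 ± 9.58 and 134 ± 6.22 CPM, with a difference in response of -0.62 ± 0.07. For Nlrc5, the transactivator of MHC class I genes, the vehicle level was 74.3 ± 2.11 CPM in the mutant and 13.7 ± 0.731 in hi-77+/+, and the treated levels were 264 ± 10.4 and 154 ± 5.49 (difference in response -1.67 ± 0.07, adjusted p = 3.5e-19). Mpeg1, a pore-forming protein of phagocytes, went from 25.5 ± 1.46 to 65 ± 3.29 CPM in the mutant and from 3.74 ± 0.367 to 30.3 ± 0.924 in hi-77+/+ (-1.67 ± 0.07, adjusted p = 2.7e-18). Receptor genes differed as well: Ifngr1 fell more in the mutant (difference -0.55 ± 0.06), Ifngr2 changed by 0.47 ± 0.05 in the mutant and -0.1 ± 0.05 in hi-77+/+ (difference 0.57 ± 0.07, adjusted p = 9.6e-08), and Tlr2 did not differ detectably in its response (0.29 ± 0.16, adjusted p = 0.22).

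**Figure D5:**
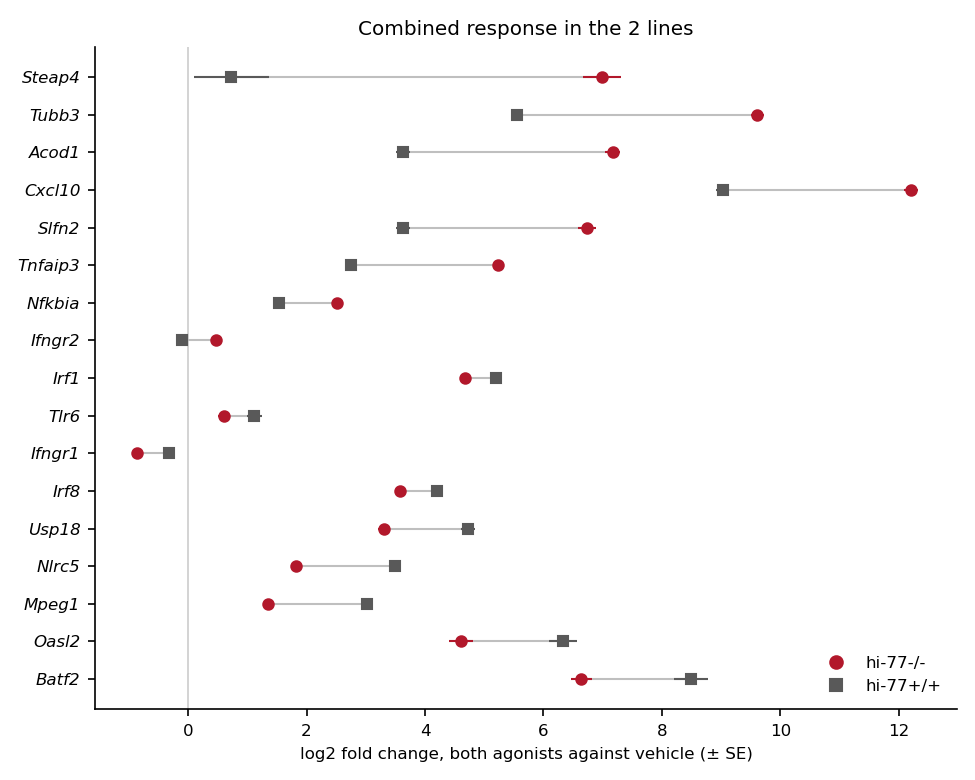
Log2 fold change ± SE, both agonists against vehicle (x axis), in hi-77-/- (circles) and hi-77+/+ (squares), for genes named by rule whose responses differed at an adjusted p under 0.05 and that had counts in both hi-77+/+ groups. Steap4, Cxcl10 and Tnfaip3 responded more in hi-77-/-, and Nlrc5, Mpeg1 and Irf8 more in hi-77+/+.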

How the data were processed

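Total RNA of 32 samples, in 8 groups of 4, was sequenced from stranded libraries after ribosomal RNA reduction, per the labels' protocols. The deposited files hold RSEM expected counts per gene, one table per library. The tools are STAR 2.5.2b and RSEM 1.3.0 and the build is mm10, per the submitters' processing notes. RSEM divides reads shared by near-identical genes among them. The expected counts were rounded to whole numbers. Gene names came from the GRCm38.p6 annotation, matching 55394 of 55487 identifiers without regard to version.

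Counts of all 32 libraries were fitted together with edgeR 4.0.16 (TMM scaling, filterByExpr on the 8 groups, robust quasi-likelihood test), so that all groups share 1 estimate of the spread. The filter left 14869 genes and removed 40618. Each of 5 contrasts was adjusted by Benjamini-Hochberg over all genes tested, with a threshold of 0.05. The contrasts were both agonists against vehicle, against IFNg and against Pam3CSK4 in the mutant line, the departure from additivity, and the mutant minus wild-type response. Errors of log2 changes are approximate standard errors: the size of the change over the square root of the test's quasi-likelihood F statistic. For large changes from low counts, as in Tgtp2 and Cxcl10, they can be smaller than the counting error. The error of a difference then need not follow from those of its parts. CPM are TMM-scaled. A gene at 0 in all vehicle libraries is given as a bound against a floor of 3 counts over the group, and intervals (95%) cover counting error only. The script was tested on simulated data.

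Members and lists were chosen with earlier results of these data known. Named genes were 12 fixed receptor and target genes, the 12 largest called rises and 12 falls with at least 5 CPM and no overlap between groups, up to 3 rises and 3 falls per list with at least 1 CPM, and 6 rises and 6 falls in each other contrast; unnamed gene models and pseudogenes were left out. The text gives a selection. Alternatives were another scaling (RLE), DESeq2 1.42.0, no filter, a stricter filter (50 counts in 4 libraries), the structural RNA share as a covariate, structural RNA genes removed, the groups of a contrast alone, the replicate number as a block, and each library left out. Leaving out treated replicates 1 and 2, or 3 and 4, was added after seeing the data. 1 gene is not reported here.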

Additional observations from a re-analysis of the deposited data

Results flagged for a closer look

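In groups of 4 libraries, 6 of 114 groups tested held a library far from the others by Dixon's test, a rule that flags about 5% of groups by chance. In vehicle these were Batf2, with 0.0974 CPM in the lowest library, Iigp1, with 0.0321 CPM in the single library that had counts, Tmem119, with 34.2 CPM in the lowest library, and total counts, with 50.3 M in the smallest library. With both agonists they were Nfkbia, with 54.8 CPM in the highest library, and Cxcl10, with 765 CPM in the lowest library.

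The log2 response to both agonists differed between the lines in 8 of the 12 genes named in every comparison (adjusted p under 0.05 by edgeR), beside 8.8% of all genes above and 6.99% below. Those 12 genes were chosen with earlier results of these data known, so their count beside these shares is no test. A further set of 12 genes, Cxcl10 among both, was named for the size of this same difference, so that they differ is no test. The mutant response was larger for Ifngr2 by 0.57, Nfkbia by 0.98, Tnfaip3 by 2.48, Slfn2 by 3.1, Cxcl10 by 3.17, Acod1 by 3.53, Tubb3 by 4.06, Rras2 by 4.71 and Steap4 by 6.26. Mutant minus wild-type differences were negative for Ifngr1 (-0.55, a larger fall in the mutant), Tlr6 (-0.52), Irf1 (-0.52), Irf8 (-0.62), Usp18 (-1.42), Nlrc5 (-1.67), Mpeg1 (-1.67), Oasl2 (-1.72), Batf2 (-1.85) and Tgtp2 (-3.8). Rras2 had no count in treated wild-type libraries and Tgtp2 none in vehicle wild-type libraries, so the size of these 2 values depends on the prior count.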

How the results depend on the processing

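For both agonists against vehicle, the counts ranged from 2907 to 3705 higher and from 2711 to 3308 lower over all alternatives, with more lower than higher genes under the stricter filter (3037 higher, 3282 lower). Of 145 genes checked, 126 kept their direction and side of the threshold in all 18 settings and 16 lost the call in some; Bcl2a1b kept both in the 17 settings that gave it a value. Gata2 and Cd14, which were not called, changed sign: Gata2 was 0.01 without treated replicates 1 and 2, and Cd14 was 0.02 when the structural share was a covariate, 0.03 without treated replicates 3 and 4, and -0.12 to 0.1 with single libraries left out. Against IFNg alone, 715 genes were lower without treated replicates 3 and 4, and 1388 without replicates 1 and 2. Downward departures from additivity numbered 120 with the covariate, 244 without treated replicates 1 and 2, 38 without replicates 3 and 4, and 47 to 112 with single libraries left out. Genotype differences above and below numbered 723 and 438 with the covariate and 703 and 571 without treated replicates 3 and 4. There were 710 above in a fit of the 4 groups alone, 1619 below with the stricter filter, 1880 below without treated replicates 1 and 2, and 788 to 1598 below with single libraries left out. The cause of these shifts was not tested. Same-numbered libraries did not deviate together (correlations 0.038, -0.194, 0.105 and -0.123, with 0 of 4 numbers best with their own). With the replicate number as a block, the counts higher and lower were 3493 and 2976 against vehicle, 1354 and 1118 against IFNg, 2590 and 1641 against Pam3CSK4, 216 and 72 for the departure, and 1263 and 1040 for the genotype difference, none moved by over 1.5 times. RLE scaling and DESeq2 each moved the median log2 change by -0.018.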
